A study of Mus musculus with 2 samples.

Results

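Cells that carried both a monocyte transcript and macrophage complement transcripts were examined among leukocytes of the pressure-overloaded mouse heart. The cells were chosen by their measured transcripts: a cell was taken as Ly6c2+ C1q-high when C1qa, C1qb and C1qc together made up at least 0.3% of its UMIs (unique molecular identifiers, which tag transcripts so that copies are counted once), when it held at least 2 UMIs of Ly6c2, and when Mki67, Top2a and Birc5 together had at most 1. Of 12407 cells kept in all, 329 met this rule, and 281 of them came from the LOY library and 48 from the control library. The 281 cells were compared with 3393 Ly6c2-negative C1q-high cells and with 192 C1q-low monocytes of the same LOY library. The C1q-low monocytes held at least 2 Ly6c2 UMIs and under 0.1% C1q, with a UMI of Ccr2 or Csf1r and at most 1 UMI over 10 lymphoid and plasmacytoid genes. The same classes held 4649 and 121 cells in the control library.

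The study transplanted LOY (loss of the Y chromosome) or control bone marrow into mice and operated on all of them with transverse aortic constriction (TAC), in which the aorta is narrowed so that the left ventricle pumps against a higher pressure. Viable CD45+ RFP+ cells, described as derived from the transplanted marrow, were sorted from left ventricles, so cells of host origin were meant to be left out. Each group was 1 droplet library (10x Genomics, 3' end counting) of 3 mice pooled after sorting. The sources used here do not give the strain, the age, the time after surgery or how the Y chromosome was lost.

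Classical monocytes of the mouse carry the surface protein Ly6C, leave the blood through the chemokine receptor CCR2 and enter injured tissue. Once there they lose Ly6C and other monocyte transcripts and take up macrophage ones, among them the 3 chains of complement C1q, Apoe and Mrc1. In the heart they add to macrophages already resident there, which are known for Lyve1, Timd4 and Folr2 and are sustained largely without monocytes.

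The LOY library held 5475 barcodes with 18710715 UMIs and a median of 3026, and the control library held 7276 barcodes with 42640861 UMIs and a median of 5109.5. A total of 31 barcodes occurred in both libraries, and they touched 1 Ly6c2+ C1q-high cell in each. With 1 library per group there was no replicate, so the comparisons have no test, and every interval (95%) reflects counting error alone. The Y-linked genes Ddx3y, Eif2s3y, Kdm5d and Uty summed to 8.70 CPM (counts per 1000000 UMIs summed over the cells of a class; 3.98 to 16.5) in the LOY Ly6c2+ C1q-high cells and to 108 CPM (79.6 to 142) in the control ones. The sum in LOY cells was 8.08% (3.49% to 16.6%) of that in control cells, which goes with the labels.

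The 2 groups of Ly6c2+ C1q-high cells differed in their lymphoid transcripts before any comparison. At least 1 UMI of the 10 lymphoid genes was found in 58 of 281 LOY cells (20.6%) and in 25 of 48 control cells (52.1%), against 10.1% of LOY and 24.8% of control Ly6c2-negative C1q-high cells. At least 3 such UMIs were found in 2.49% of the LOY cells and in 22.9% of the control cells. Scrublet, which scores barcodes for holding 2 cells, marked 24 LOY cells (8.54%) and 14 control cells (29.2%), against 3.95% and 6.45% of the Ly6c2-negative C1q-high cells. Median UMIs per cell were 3232 in the LOY cells, 3083 in LOY Ly6c2-negative C1q-high cells and 2873 in LOY monocytes. They were 8780.5, 5760 and 7357 in the same classes of the control library, so the control cells were deeper than both of their neighbours. The gene comparison of LOY with control Ly6c2+ C1q-high cells required at least 50 cells in each library and was not made. Their values are given side by side, and the descriptions rest on comparisons within a library.

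Ly6c2+ C1q-high cells made up 7.37% (6.56% to 8.25%, Clopper-Pearson) of non-cycling C1q-high cells in the LOY library and 1.01% (0.749% to 1.34%) in the control library. As a share of all kept cells they were 5.19% in the LOY and 0.686% in the control library. Because the control cells were deeper, which favours reaching 2 UMIs there, every cell was also thinned at random to 2000 UMIs before the limits were applied. The shares were then 6.33% (5.53% to 7.21%) in the LOY and 0.570% (0.376% to 0.829%) in the control library, with 1155 LOY and 671 control cells too shallow to enter. Among cells with no lymphoid UMI the shares were 6.59% in the LOY and 0.649% in the control library. The LOY share was higher under each of these settings, between 2 libraries and not between replicated groups.

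**Figure D1:**
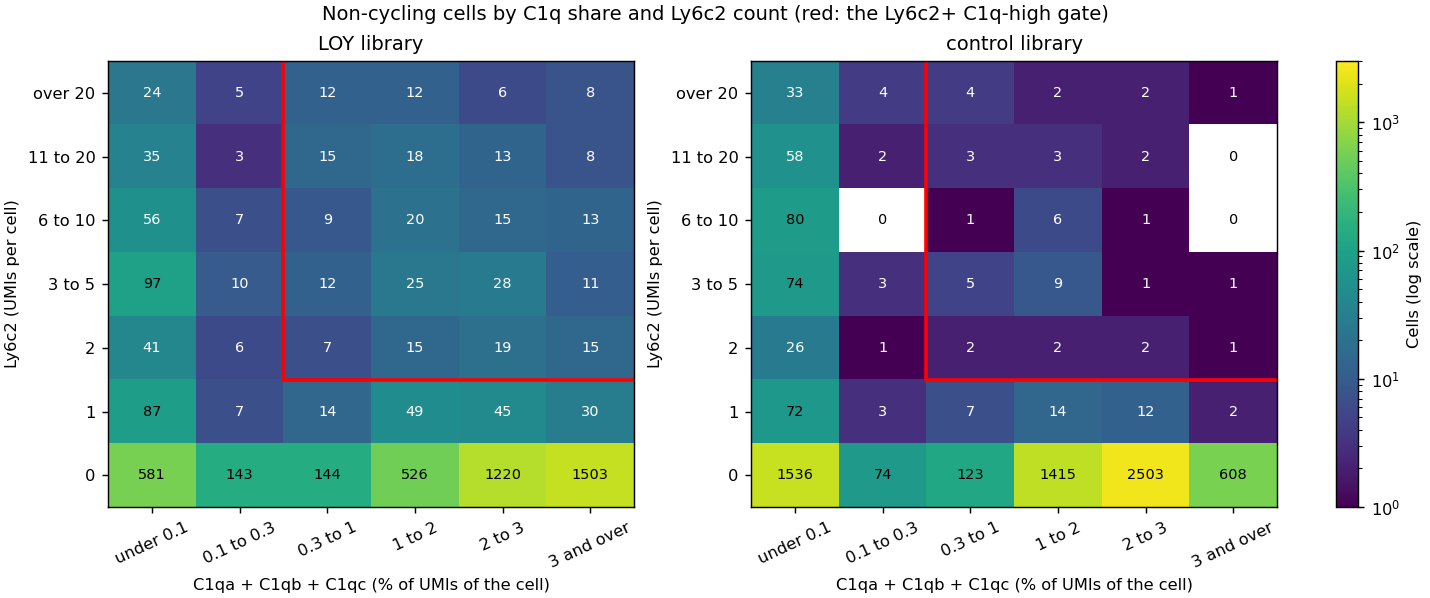
Number of non-cycling cells by the share of C1q transcripts among a cell's UMIs (x axis, percent) and by its Ly6c2 UMIs (y axis), LOY library left and control library right, with colour on a log scale. Cells right of and above the red line are the Ly6c2+ C1q-high cells, 281 in the LOY and 48 in the control library, and in both libraries cells with 0 Ly6c2 UMIs fill most of the C1q-high columns.

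The limits of the rule cut through a range of Ly6c2 counts and C1q shares. The 281 LOY cells held a minimum of 2, a median of 6 and a maximum of 77 Ly6c2 UMIs, and 56 of them sat at exactly 2. Another 138 C1q-high LOY cells held exactly 1 Ly6c2 UMI and were left out. Cells at 2 UMIs and cells at 1 UMI had close levels of Plac8 (190 and 183 CPM), Ly6a (1809 and 1540 CPM), Ccr2 (420 and 444 CPM) and Trem2 (1181 and 1072 CPM). They were farther apart for Mrc1 (513 and 343 CPM), F13a1 (482 and 298 CPM), Vcan (35.4 and 1.87 CPM) and Ccl8 (1778 and 638 CPM). The cells at 1 UMI also held 1392.5 CPM of the 5 neutrophil markers, against 85.0 CPM in the Ly6c2+ C1q-high cells. On the other side, C1q ran from 0.307% to 5.31% of UMIs with a median of 1.95%, against a median of 2.85% in Ly6c2-negative C1q-high cells. The 20 cells between 0.3% and 0.5% C1q had 945 CPM of Plac8, and the 14 non-cycling cells with at least 2 Ly6c2 UMIs between 0.2% and 0.3% had 1249 CPM. In the same order Ly6a had 2363 and 3875 CPM, Isg15 1793 and 4521 CPM, Apoe 20387.5 and 11475 CPM and the lysosomal protease gene Ctsd 1581 and 409 CPM. Some genes were thus at similar levels on both sides of a limit and others were not, in few cells.

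The 4 genes given as markers were all read in these cells, though 2 of them belong to the rule. Ly6c2 (ENSMUSG00000022584, mm10 chromosome 15, 75108158 to 75111970), which encodes the Ly6C antigen, had 2708 CPM in LOY Ly6c2+ C1q-high cells and 2791 CPM in LOY monocytes. C1qa (ENSMUSG00000036887, chromosome 4, 136895917 to 136898803) had 9138 CPM in the LOY cells, 12567 CPM in Ly6c2-negative C1q-high cells and 69.1 CPM in monocytes. Ly6c1, a near-identical neighbour that could share reads with Ly6c2, had 1 UMI in the LOY cells. These levels follow from the rule and carry no further information.

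Ly6a and Plac8 were not used by the rule. Ly6a (ENSMUSG00000075602, chromosome 15, 74994877 to 74998031) encodes the stem cell antigen Sca-1 and is induced by interferon. It had 3051 CPM (2946 to 3160) in LOY Ly6c2+ C1q-high cells, against 783 CPM (767 to 799) in Ly6c2-negative C1q-high cells and 1455 CPM (1357 to 1558) in monocytes. It had 1386, 233 and 255 CPM in the same classes of the control library, so the Ly6c2+ C1q-high cells were the highest of the 3 classes in both libraries. Plac8 (ENSMUSG00000029322, chromosome 5, 100553725 to 100572245), a monocyte gene that lymphocytes also use, had 504 CPM (462 to 550) in the LOY cells, 26.6 CPM (23.8 to 29.7) in Ly6c2-negative C1q-high cells and 1276 CPM (1184 to 1372) in monocytes. It lay between the other classes in the LOY library and also in the control library, with 1639, 9.31 and 4635 CPM.

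Free RNA in the droplets was gauged with B cells, which should lack most of these transcripts. They were taken as cells with at least 3 UMIs over Cd79a and Cd79b and under 0.1% C1q. The C1q limit leaves out B cells with much C1q from free RNA, so their shares may understate it, which was not tested. With cells thinned to 1000 UMIs and shallower ones left out, which removed 99 of 159 LOY B cells and 2 of the 281 Ly6c2+ C1q-high cells, Chil3 was seen in 22.6% of LOY Ly6c2+ C1q-high cells, 2.4% of Ly6c2-negative C1q-high cells, 53.2% of monocytes and 1.7% of B cells (1 of 60, 0.0422% to 8.94%). In the classes set by C1q and Ly6c2 the shares of these genes follow from the rule and are not read here. The B cells had no limit on Ly6c2, and it was seen in 1.7% of them (1 of 60). Ly6a was seen in 83.2%, 30.1%, 38.4% and 51.7% of the same classes in the same order, and Ms4a4c in 64.5%, 18.0%, 67.4% and 21.7%. How much of these B cell shares was free RNA was not tested. Plac8 was seen in 29.7% of the LOY cells and 2.2% of Ly6c2-negative C1q-high cells, but also in 15.0% of B cells, which use the gene themselves.

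Measured against Ly6c2-negative C1q-high cells of the LOY library, the Ly6c2+ C1q-high cells carried more monocyte and interferon-response transcripts and fewer transcripts of resident and mature macrophages. Of 7512 genes with at least 10 CPM in either class, 322 (4.29%) were higher and 505 (6.72%) were lower by 1.5-fold or more, on the log2 ratio of CPM with 10 CPM added to both. The median over all these genes was -0.04. The added 10 CPM understates the ratio of low genes, and a fold printed with its interval is the ratio without the added CPM.

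Of 25 classical monocyte genes, 19 were higher, 1 was lower and the median log2 ratio was 1.06. Chil3, a chitinase-like protein of monocytes, had 310 CPM in LOY Ly6c2+ C1q-high cells, 27.0 CPM in Ly6c2-negative C1q-high cells and 1354 CPM in monocytes, 11.5-fold (9.82 to 13.5) above the Ly6c2-negative cells. The haemoglobin-binding protein Hp had 82.1, 7.13 and 930 CPM in the same order. Ccr2, the receptor for monocyte-attracting chemokines, was closer to the monocytes, with 570, 222 and 861 CPM. The monocytes had to hold a UMI of Ccr2 or Csf1r, so their Ccr2 level is partly set by that limit. The log2 ratio of Ccr2 to monocytes was -0.59, and -0.32 without the receptor and lymphoid limits. Among Chil3, Hp and Ccr2, Hp was unevenly held, since the 5 cells with the most UMIs carried 45.9% of it.

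The gene of this list that ran the other way was F13a1, the coagulation factor XIII A subunit, which monocytes and resident macrophages both use. It had 220 CPM (193 to 251) in the LOY Ly6c2+ C1q-high cells, below both the Ly6c2-negative C1q-high cells with 683 CPM and the monocytes with 422 CPM. Lyz2, lysozyme of all phagocytes, was likewise lowest in them, at 8112 CPM against 11910 and 19447 CPM, although its log2 ratio of -0.55 to the Ly6c2-negative cells was inside 1.5-fold. Both genes were also lowest in these cells in the control library, F13a1 with 336 CPM against 771 and 553 CPM, and Lyz2 with 10197 CPM against 14284 and 28620 CPM.

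Of 17 measured resident macrophage genes, 15 were lower, none was higher and the median was -1.25. The list overlaps in Cd163 with the macrophage identity list and in F13a1 with the monocyte list. Lyve1, a hyaluronan receptor, had 40.6 CPM (29.2 to 54.9) in LOY Ly6c2+ C1q-high cells, 241 CPM (233 to 251) in Ly6c2-negative C1q-high cells and 0 UMIs in monocytes, which allows up to 5.32 CPM. It was seen in 10 of the 281 cells (3.56%), and 5 of them carried 83.3% of its UMIs. Folr2, a folate receptor, had 173, 425 and 14.2 CPM in the same order, Cbr2 203, 692 and 24.8 CPM, and the growth factor Igf1 61.8, 219 and 1.77 CPM. The last 3 genes sat between the other classes.

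Of 24 genes of macrophage identity, 8 were lower, 1 was higher and the median was -0.46. The chemokine Pf4 had 577 CPM in LOY Ly6c2+ C1q-high cells, 1909 CPM in Ly6c2-negative C1q-high cells and 88.6 CPM in monocytes. The mannose receptor Mrc1 had 272, 732 and 40.8 CPM, and the tetraspanin Cd63 of late endosomes had 186, 629 and 37.2 CPM. The gene that ran higher was Fcgr1, the high-affinity IgG receptor, with 1093, 497 and 861 CPM. Adgre1, which encodes the general macrophage antigen F4/80, differed less than 1.5-fold from the Ly6c2-negative C1q-high cells, with 216, 299 and 95.7 CPM.

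**Figure D2:**
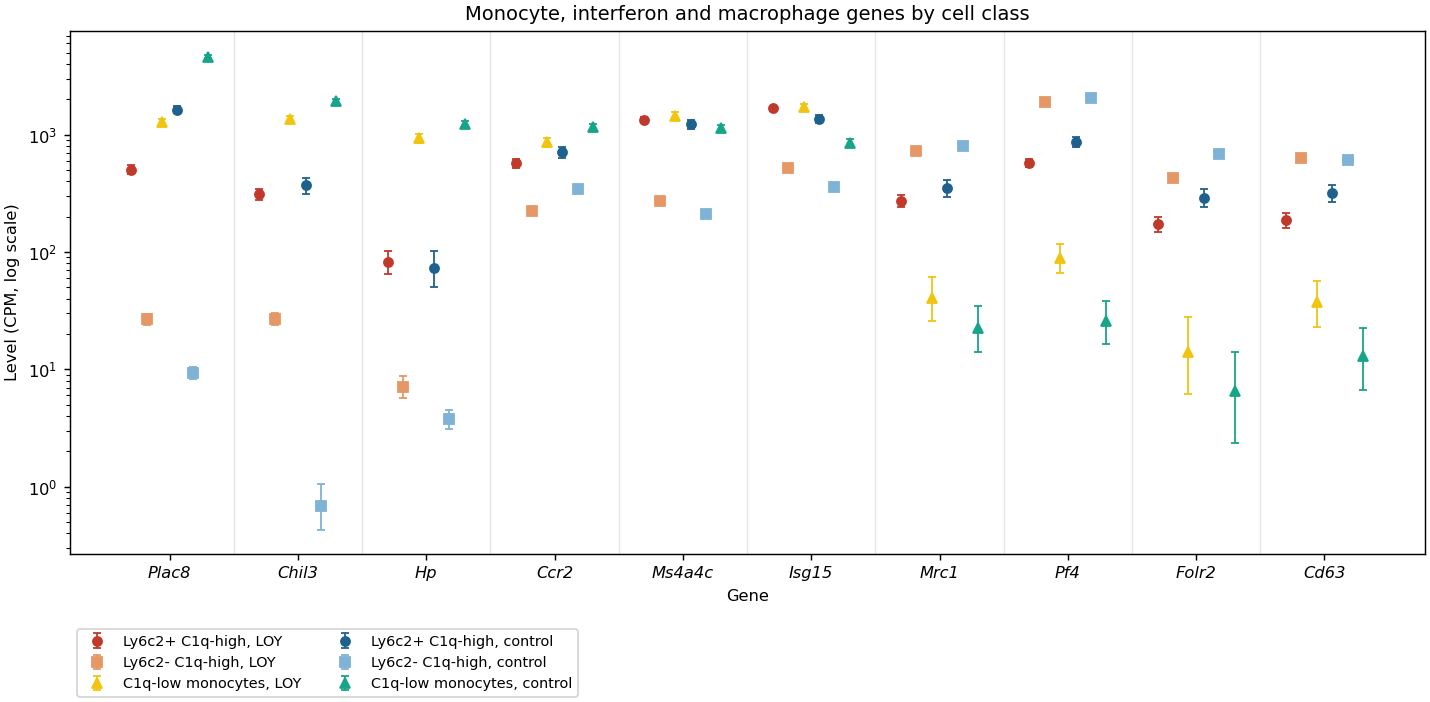
Level of 10 genes (y axis, CPM, log scale) in 3 cell classes of the LOY library and then of the control library, with exact Poisson 95% intervals that cover counting error only. For Plac8, Chil3, Hp and Ccr2 and for Mrc1, Pf4, Folr2 and Cd63 the Ly6c2+ C1q-high cells sit between the other classes in both libraries, whereas for Ms4a4c and Isg15 they sit near or above the monocytes. The monocytes had to hold a UMI of Ccr2 or Csf1r, so their Ccr2 level is partly set by that limit.

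Interferon-response genes separated the Ly6c2+ C1q-high cells from their Ly6c2-negative neighbours more than from monocytes in the LOY library. Of 38 type I interferon genes, 29 were higher than in Ly6c2-negative C1q-high cells, none was lower, and the median was 0.79. Against monocytes 2 were higher, 3 were lower and the median was -0.04, where 11.5% of all genes were higher and 9.87% lower. Isg15 (ENSMUSG00000035692, chromosome 4, 156199424 to 156200818), a ubiquitin-like modifier, had 1679 CPM (1601 to 1760) in the LOY cells, 515 CPM (502 to 528) in Ly6c2-negative C1q-high cells and 1712 CPM (1605 to 1823) in monocytes. Irf7, the transcription factor that amplifies the response, had 1128, 422 and 1017 CPM, and Ms4a4c, a membrane protein that is also in the monocyte list, had 1342, 270 and 1455 CPM. In the control library the same 29 of 38 count was reached, with a median of 0.76, and against control monocytes 15 were higher, none was lower and the median was 0.43. Over all genes of the control library 8.63% were higher than in Ly6c2-negative C1q-high cells. Against control monocytes 17.3% of all genes were higher and 13.8% lower. In control cells Isg15 had 1373, 361 and 852 CPM.

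The promoters of Isg15 and Ly6c2 are shown because the levels of both genes vary within these cells. They are RefSeq promoters of the build GRCm38.p6, running from 250 bases before to 50 bases after the start, 5' to 3' on the gene's strand. The motif searched on both strands was GAAANNGAAA, a core of the element bound by interferon-activated factors. Capitals mark bases covered by a match, and matches may overlap.
Isg15 promoter: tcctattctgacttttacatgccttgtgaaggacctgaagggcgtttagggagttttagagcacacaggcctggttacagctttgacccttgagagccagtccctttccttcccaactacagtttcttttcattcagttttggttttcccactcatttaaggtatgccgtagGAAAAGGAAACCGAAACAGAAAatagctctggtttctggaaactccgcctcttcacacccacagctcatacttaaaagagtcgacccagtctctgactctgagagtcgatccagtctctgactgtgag
Ly6c2 promoter: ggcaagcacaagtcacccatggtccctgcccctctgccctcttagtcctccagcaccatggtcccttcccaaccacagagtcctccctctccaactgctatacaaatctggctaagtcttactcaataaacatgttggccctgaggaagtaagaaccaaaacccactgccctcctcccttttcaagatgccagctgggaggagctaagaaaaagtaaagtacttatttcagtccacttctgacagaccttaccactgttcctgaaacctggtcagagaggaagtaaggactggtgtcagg
The Isg15 promoter, at chr4:156200769-156201068 on the minus strand, held 3 overlapping matches over 22 bases. The Ly6c2 promoter, at chr15:75111922-75112221 on the minus strand, held none, which says only that these letters are not in this window. Over all 32851 promoters in the table, 1131 (3.44%) held the motif, and of 38 type I interferon genes 31 were in the table and 19 of these held it. A match is a description of letters and not a bound site.

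Genes of the interferon-gamma response differed in the same direction by less. Of 17 measured, 7 were higher than in Ly6c2-negative C1q-high cells, none was lower and the median was 0.53. The chemokine Cxcl10 had 488, 199 and 757 CPM in LOY Ly6c2+ C1q-high cells, Ly6c2-negative C1q-high cells and monocytes. Nos2, inducible nitric oxide synthase, had 0 UMIs in the LOY cells, which allows up to 2.9 CPM.

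Antigen presentation by MHC class II was read at different places relative to the neighbours in the 2 libraries. In the LOY library 7 of 9 measured genes were higher than in Ly6c2-negative C1q-high cells, none was lower and the median was 0.91, and against monocytes 4 were higher with a median of 0.43. H2-Ab1, a class II beta chain, had 3823 CPM (3705 to 3944) in the LOY cells, 1771 CPM (1747 to 1795) in Ly6c2-negative C1q-high cells and 2323 CPM (2199 to 2452) in monocytes. In the control library 1 of 9 was higher than in Ly6c2-negative C1q-high cells, none was lower and the median was -0.32. There H2-Ab1 had 5720 CPM (5502 to 5944), 8394 CPM (8361 to 8427) and 1341 CPM (1268 to 1418) in the same classes. The LOY cells were thus above both neighbours and the control cells between theirs, and this difference between libraries was not tested. Without cells that had a lymphoid UMI, H2-Ab1 had 3856, 1753 and 1999 CPM in the LOY library and 5496.5, 8115 and 1381 CPM in the control library.

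MHC class I genes were higher for 6 of 15 and lower for none, with a median of 0.53. H2-Q7, a non-classical class I gene with close copies whose reads may be split, had 468, 188 and 218 CPM in LOY Ly6c2+ C1q-high cells, Ly6c2-negative C1q-high cells and monocytes. Of the 4 other measured Ly6 family genes 3 were higher and none was lower. Ly6e had 4724, 2678 and 3682 CPM and Ly6i had 36.7, 1.61 and 60.2 CPM, with 52.6% of the Ly6i UMIs in 5 cells.

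**Figure D3:**
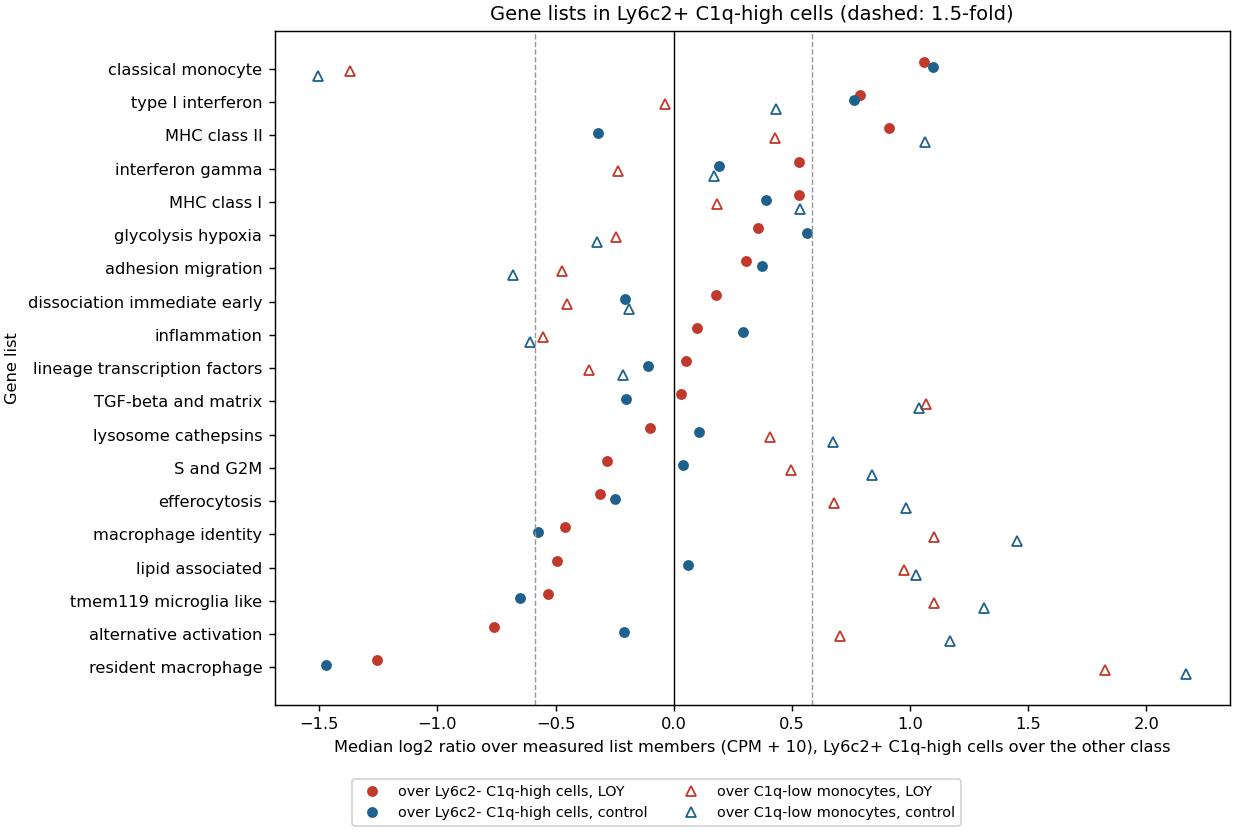
Median log2 ratio (x axis, CPM with 10 added) over the measured members of 19 gene lists (y axis), for Ly6c2+ C1q-high cells over Ly6c2-negative C1q-high cells (filled circles) and over C1q-low monocytes (open triangles) of the same library, LOY in red and control in blue. Monocyte genes lie at 1.06 and -1.37 and resident macrophage genes at -1.25 and 1.82 in the LOY library, while type I interferon genes lie at 0.79 and -0.04.

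Set against C1q-low monocytes of the LOY library, monocyte and macrophage genes ran the other way round. Of 7435 genes, 853 (11.5%) were higher and 734 (9.87%) were lower by 1.5-fold or more, with a median over all genes of -0.0038. Of 25 classical monocyte genes none was higher and 21 were lower, with a median of -1.37. Of 23 genes of macrophage identity 15 were higher and 1 lower (median 1.10), and of 14 resident macrophage genes 11 were higher and 1 lower (median 1.82). Apoe, the lipid carrier, had 29007 CPM in the LOY Ly6c2+ C1q-high cells, 40907 CPM in Ly6c2-negative C1q-high cells and 10857 CPM in monocytes.

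Leaving aside the C1q genes of the rule, the largest ratio over monocytes was that of the chemokine Ccl8, with 764 CPM against 28.3 CPM, but 77.2% of its UMIs sat in 5 cells. It was followed by genes read more evenly, among them the Fc receptor-like gene Fcrls with 272 against 28.3 CPM (9.58-fold) and Timp2, an inhibitor of metalloproteinases, with 364 against 60.2 CPM (6.05-fold). At the other end stood S100a8 and S100a9, the calprotectin subunits. S100a8 had 13.5 CPM against 381 CPM and S100a9 had 10.6 CPM against 432 CPM, but in monocytes only 3.65% and 2.60% of cells held a UMI of them, so these levels came from few cells. Vcan (26.1 against 186 CPM), Fn1 (126 against 652 CPM) and the protease inhibitor Slpi (18.4 against 294 CPM) were lower as well.

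For most genes that set the other LOY classes apart, the Ly6c2+ C1q-high cells sat between them and nearer to the C1q-high side. Of 2207 genes that differed by 1.5-fold or more between Ly6c2-negative C1q-high cells and monocytes of the LOY library, the Ly6c2+ C1q-high cells had a value between theirs for 1774 (80.4%). They were nearer to the Ly6c2-negative C1q-high cells for 1492 genes (67.6%) and nearer to monocytes for 715. The rule took cells with both C1q and Ly6c2, so this place is partly built in for genes that go with either, and these shares have no baseline. Barcodes marked as doublets were more frequent among these cells, as given above, and their part in this position was not tested.

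Few genes lay well outside this interval. Of 7841 genes, 57 (0.727%) were at least 1.5-fold above the higher of the other LOY classes and 61 (0.778%) were at least 1.5-fold below the lower one. The 10 with the largest margin above both were Ccl5, Cfb, H2-Q7, Ly6a, AW112010, Fcgr4, Il18bp, H2-Eb1, H2-Aa and Ecm1. Cfb, factor B of the alternative complement pathway, had 435 CPM (396 to 477) in the LOY cells, 151 CPM (144 to 158) in Ly6c2-negative C1q-high cells and 197 CPM (162 to 237) in monocytes. Fcgr4, an activating IgG receptor, had 547, 279 and 257 CPM, Il18bp, the binding protein that neutralises interleukin-18, had 97.6, 48.9 and 42.5 CPM, and the matrix protein gene Ecm1 had 383, 218 and 200 CPM. Of these genes Ccl5, Cfb, Ly6a, AW112010, Il18bp, Fcgr4, H2-Q7 and Ecm1 were also highest in the Ly6c2+ C1q-high cells of the control library, whereas H2-Aa and H2-Eb1 were highest there in Ly6c2-negative C1q-high cells.

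Ccl5, a chemokine that attracts T cells, led this group and was the least even of it. It had 531 CPM (488 to 578) in the LOY cells, 157 CPM in Ly6c2-negative C1q-high cells and 230 CPM in monocytes, and 50.5% of its UMIs were in 5 cells. Leaving out all LOY cells with a lymphoid UMI gave 545, 142 and 233 CPM, so the LOY value was as large without them. In the control library Ccl5 had 459 CPM in the Ly6c2+ C1q-high cells, and without cells with a lymphoid UMI it had 28.9 CPM in 23 cells, against 39.4 CPM in Ly6c2-negative C1q-high cells. Cfb in turn had 443 CPM in the LOY cells and 390 CPM in the control cells without lymphoid UMIs, against 148 and 155 CPM in the Ly6c2-negative C1q-high cells.

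**Figure D4:**
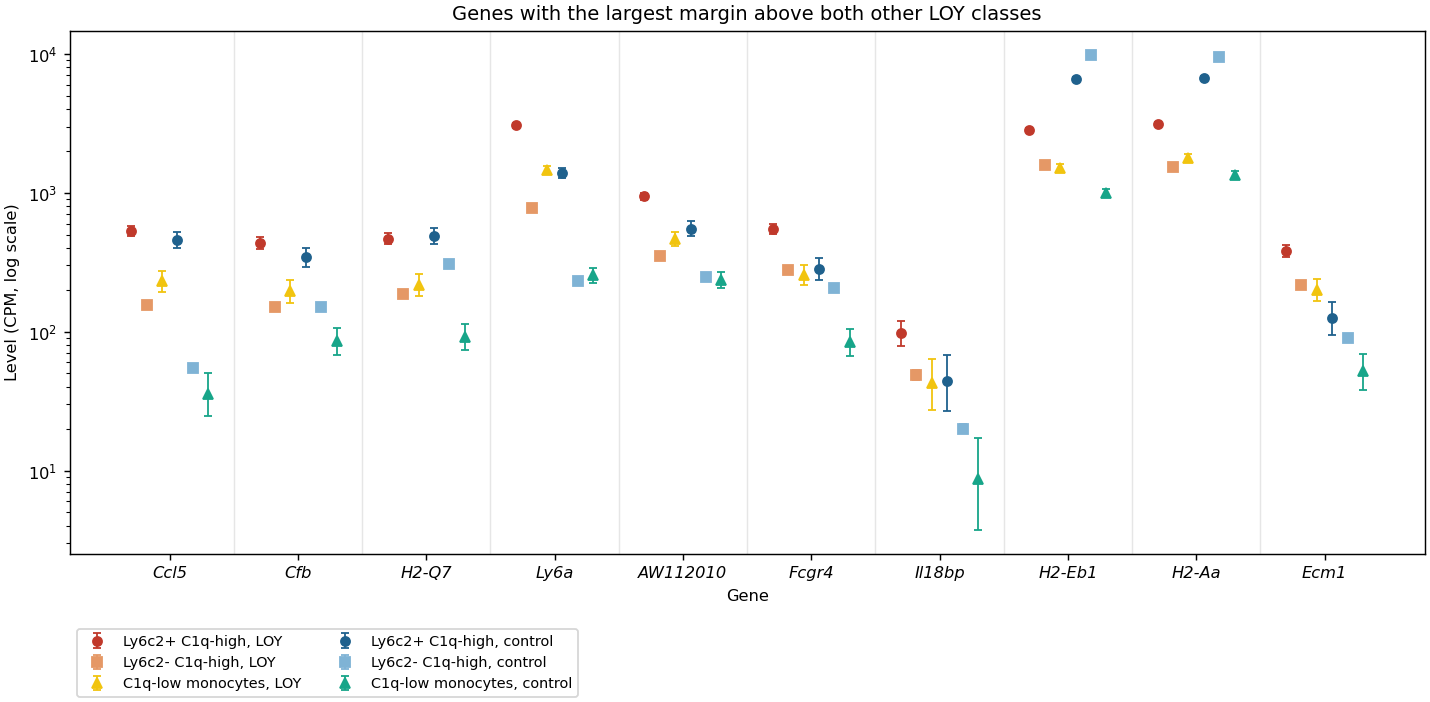
Level (y axis, CPM, log scale) of the 10 genes with the largest margin of LOY Ly6c2+ C1q-high cells over both other LOY classes, in the 3 classes of the LOY and then the control library, with exact Poisson 95% intervals. The genes were picked for the LOY pattern, and in the control library 8 of the 10 have their highest level in the same class while H2-Eb1 and H2-Aa do not.

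Within the 281 LOY cells, levels of several interferon and macrophage genes differed along the Ly6c2 level, while monocyte genes did not all run one way. The cells were split into 94, 94 and 93 by the Ly6c2 share of their UMIs, low to high. Ly6a had 1861 CPM (1738 to 1991), 2839 CPM (2653 to 3034) and 5268 CPM (5000 to 5548) in the low, middle and high parts, Isg15 had 885, 1846 and 2813 CPM, and Plac8 had 220, 524 and 955 CPM. Pf4 had 1012, 381 and 73.2 CPM, Fcrls 493, 150 and 40.2 CPM and Cbr2 363, 94.4 and 58.5 CPM. H2-Ab1 had 3226, 4470 and 4090 CPM, with its highest level in the middle. Of monocyte genes, Ccr2 had 405, 677 and 724 CPM and Chil3 had 227, 348 and 406 CPM, whereas Hp had 72.6, 97.7 and 80.5 CPM and Vcan had 19.8, 35.8 and 25.6 CPM. F13a1 (385, 124 and 54.9 CPM) and Lyz2 (9941, 7829 and 5389 CPM) ran the other way. Apoc2, an apolipoprotein gene, had 282, 423 and 479 CPM. The median UMIs per cell also differed along the split, 4283, 3232.5 and 2855, and the part of depth in these gradients was not tested.

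A split of the same cells by C1q share did not order all of these genes alike. Plac8 had 969 CPM (863 to 1085), 406 CPM (342 to 479) and 215 CPM (171 to 267) from the low to the high C1q part, and Isg15 had 2407, 1497 and 1253 CPM. Chil3 had 556, 212 and 200 CPM, and Mrc1 had 165, 290 and 341 CPM. Ly6a, which followed Ly6c2, had 2966 CPM (2777 to 3164), 2994 CPM (2814 to 3183) and 3172 CPM (2996 to 3356), with overlapping intervals. Median UMIs were 3222.5, 3149 and 3318 in these parts.

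**Figure D5:**
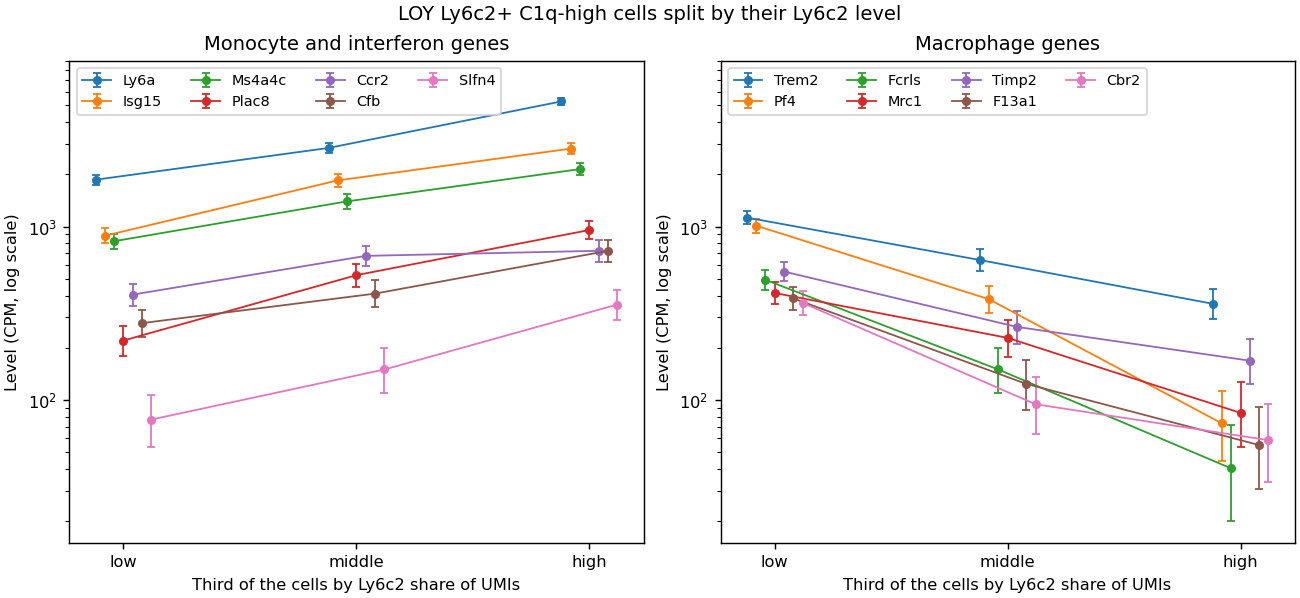
Level (y axis, CPM, log scale) of monocyte and interferon genes (left) and macrophage genes, with F13a1 that monocytes share (right), in the 281 LOY Ly6c2+ C1q-high cells, divided into 3 nearly equal parts by their Ly6c2 share of UMIs (x axis, low to high), with exact Poisson 95% intervals. The genes were picked after their values were seen, and those on the left are lowest in the low part and those on the right highest there, with Ly6a at 1861, 2839 and 5268 CPM and Pf4 at 1012, 381 and 73.2 CPM.

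Genes tied to fibrosis were mixed. Tgfb1, the ligand TGF-beta 1, had 279 CPM (248 to 313) in the LOY Ly6c2+ C1q-high cells, 263 CPM (254 to 273) in Ly6c2-negative C1q-high cells and 372 CPM (323 to 426) in monocytes, within 1.5-fold of both. The 3 control classes had 204, 200 and 272 CPM of it. Of 19 measured TGF-beta and matrix genes 4 were higher and 4 lower than in Ly6c2-negative C1q-high cells, with a median of 0.03. The higher ones included Tgfbi, a matrix protein induced by TGF-beta, with 784, 305 and 854 CPM, and Thbs1, thrombospondin 1, with 77.3, 24.8 and 128 CPM. The lower ones included Igf1 and Timp2, and the same list against monocytes had 11 higher and 4 lower (median 1.07, but 0.25 with no filter on low values and 0.39 with 50 CPM added).

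Lipid-associated macrophage genes were lower than in Ly6c2-negative C1q-high cells for 10 of 21 and higher for 1 (median -0.50). Trem2, a lipid-sensing receptor, had 780, 1328 and 319 CPM in LOY Ly6c2+ C1q-high cells, Ly6c2-negative C1q-high cells and monocytes, and the single higher gene, Apoc2, had 376, 135 and 508 CPM. Spp1, osteopontin, had 358, 340 and 168 CPM in the LOY library. In the control library Spp1 had 492 CPM in Ly6c2+ C1q-high cells, 20.5 CPM in Ly6c2-negative C1q-high cells and 85.3 CPM in monocytes. Microglia-like genes were lower for 5 of 11 and higher for 1, which was Tmem119 itself, with 131, 78.0 and 33.7 CPM.

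Chemokines split by gene, with 3 of 17 higher and 4 lower. Ccl2, the CCR2 ligand, had 186, 95.6 and 257 CPM in the 3 LOY classes and 683, 249 and 194 CPM in the 3 control classes. Transcripts of replication and mitosis outside the rule were lower for 3 of 19 and higher for none (median -0.28), though cells over the limit on 3 cycling genes had been removed from all classes. Immediate early and heat shock genes, which rise when tissue is dissociated, were lower for 3 of 26 and higher for none. Over all genes 6.72% were lower. The median of this list was 0.18, and it summed to 12586 CPM against 11137 CPM in Ly6c2-negative C1q-high cells, so it did not run 1 way.

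Markers of other cell types were present at different levels in the LOY Ly6c2+ C1q-high cells and their neighbours. The 5 neutrophil markers summed to 85.0 CPM in them, 181 CPM in Ly6c2-negative C1q-high cells and 916 CPM in monocytes. The 5 T cell markers summed to 9.66 CPM, against 2.54 CPM in Ly6c2-negative C1q-high cells and 1.77 CPM in monocytes. The 5 NK cell markers summed to 46.4 CPM, against 1.78 CPM in Ly6c2-negative C1q-high cells and 0 UMIs in monocytes, which allows up to 5.32 CPM. The monocytes had been limited to at most 1 UMI over 10 lymphoid and plasmacytoid genes, among them Cd3d, Cd3e and Cd3g. Their low T cell and NK cell sums therefore follow in part from that limit. Of the NK cell list only Gzma reached 10 CPM in the comparison with monocytes, with a log2 ratio of 1.77. Without the receptor and lymphoid limits Gzma had -3.27. The list median was then -1.35, over a set of measured genes that was not the same. The granzyme Gzma made up 24.2 CPM of the NK cell sum, all of it in 4 cells. The 5 B cell markers summed to 50.2 CPM, against 40.5 CPM in Ly6c2-negative C1q-high cells, and of 5 dendritic cell markers 4 were at 0. The 5 cardiomyocyte markers summed to 34.8 CPM, below the 127 CPM of Ly6c2-negative C1q-high cells. Mitochondrial transcripts had a median of 1.15% of UMIs per cell, against 2.01% in Ly6c2-negative C1q-high cells and 1.62% in monocytes. In the 48 control cells the T cell, NK cell and B cell markers summed to 98.8, 130 and 149 CPM, against 11.1, 6.15 and 67.1 CPM in control Ly6c2-negative C1q-high cells. The part of these transcripts in the remaining gene differences was not tested.

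The control library gave another, smaller view of the same contrast. Its Ly6c2+ C1q-high cells were higher than Ly6c2-negative C1q-high cells for 689 of 7986 genes (8.63%) and lower for 742 (9.29%), and against control monocytes for 1359 of 7858 (17.3%) and 1086 (13.8%). Among 7239 genes measured in both libraries, 302 were higher in the LOY comparison with Ly6c2-negative C1q-high cells and 541 in the control one, and 193 were higher in both. These were 63.9% of the LOY genes and 35.7% of the control genes, where 7.47% of all these genes were higher in the control library. Of genes lower in the LOY comparison 222 of 485 (45.8%) were lower in the control one as well, where 9.02% of all were. Classical monocyte genes were higher for 19 of 24 and lower for 1 (median 1.10), and resident macrophage genes were lower for 16 of 17 (median -1.47). Lipid-associated genes had a median of 0.06, with 8 of 21 higher and 6 lower.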

How the data were processed

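The authors deposited whole UMI counts for each gene in each barcode, without scaling. They came from Cell Ranger 5.0.0 on the build mm10, per the submitters' processing notes. Which annotation release was used, and how barcodes had been filtered, is not given in the sources used here. GENCODE M21, of the same build, supplied the gene positions. Barcodes under 500 UMIs, under 200 genes or over 10% mitochondrial UMIs were dropped (Python 3.11.15, numpy 2.4.6, scipy 1.17.1, pandas 2.3.3, scanpy 1.11.5, anndata 0.12.19, matplotlib 3.10.9).

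Doublets were scored with scrublet and kept, and removing the highest scores, at 0.8% per 1000 barcodes, was an alternative. UMIs were summed per class and divided by the class total (CPM). Cells are not replicates and each group was 1 library, so no p-value was computed. Sums have exact Poisson intervals, ratios exact conditional intervals and shares Clopper-Pearson intervals, at 95%. For a count of 0 the limit of 3 counts is printed. PCR and pooling errors are not covered by them. The ratio and interval code was tested on simulated counts.

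The cells, the gene lists and the comparisons were chosen with earlier results of these data known. Genes named are the 15 highest and 15 lowest of each LOY comparison and the 10 with the largest margin above both classes. Each of these had at least 50 CPM and 50 UMIs. The 2 highest and 2 lowest members of each list were named from 10 CPM up. The markers, the Ly6 and Y-linked genes and Tgfb1 were named with no such minimum. Genes of antigen receptors, haemoglobins, ribosomal proteins and mitochondria and unnamed gene models were not ranked, nor were the genes of the rule. Some other list members were named after their values were seen, and the control library's own comparisons and 2 of the alternatives were added then. The planned comparison of LOY with control cells was not made, since only 48 control cells met the rule.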

Additional observations from a re-analysis of the deposited data

Results flagged for a closer look

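For several named genes the difference between Ly6c2+ C1q-high cells and a neighbouring class ran in opposite directions in the libraries. The difference between libraries was not tested. Of these genes 3 were flagged, which were Gpnmb, Hspb1 and Cxcl10. Cenpa was not flagged but had log2 ratios to C1q-low monocytes of -0.64 in the LOY and 0.91 in the control library. H2-Ab1, described above, had 1.11 and -0.55 to Ly6c2-negative C1q-high cells. Gpnmb, a lysosomal glycoprotein of lipid-associated macrophages, had a log2 ratio to Ly6c2-negative C1q-high cells of -1.57 in the LOY and 1.31 in the control library, from 8 UMIs in the Ly6c2+ C1q-high cells of each. Those UMIs sat in 2.14% of the 281 LOY cells and in 2.08% of the 48 control cells, so the control ratio rests on almost no cells. The small heat shock gene Hspb1 had ratios of -0.64 and 0.69 against the same class. Cxcl10, a chemokine induced by interferon-gamma, had a log2 ratio to C1q-low monocytes of -0.62 in the LOY and 0.73 in the control library. Its levels were 488 and 757 CPM in Ly6c2+ C1q-high cells and monocytes of the LOY library, and 323 and 190 CPM in those of the control library.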

How the results depend on the processing

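No paired analysis was possible because each group was 1 library with no replicate number. Counts of genes past 1.5-fold, given as higher and lower than Ly6c2-negative C1q-high cells and then higher and lower than monocytes, were 322, 505, 853 and 734. They were 571, 998, 1361 and 1161 with 1 CPM added, 121, 97, 144 and 170 with 50 CPM added, and 208, 186, 252 and 325 among genes of at least 50 CPM. The LOY share of 7.37% became 5.90% with at least 3 Ly6c2 UMIs, 6.33% when thinned to 2000 UMIs and 4.06% when thinned to 1000 UMIs. The control share of 1.01% became 0.649% without lymphoid UMIs and 0.570% and 0.392% when thinned to 2000 and 1000 UMIs. Of named genes past 1.5-fold, 107 of 109 against Ly6c2-negative C1q-high cells and 98 of 108 against monocytes kept their direction in every setting, and 81 and 67 stayed past it. Of gene lists with a median past 1.5-fold, 5 of 14 and 8 of 18 stayed past it in every setting, most losses coming with 50 CPM added or with no filter on low values. Some of these lists had only 1 measured gene. They were the NK cell, fibroblast, endothelial and platelet markers against Ly6c2-negative C1q-high cells. Against monocytes they were the NK cell, dendritic cell, cardiomyocyte and platelet markers.

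The log2 ratio changed sign for Hspb1 (0.37 with no limit on cycling genes), Gzma (-0.014 without lymphoid UMIs) and the Ly6 family median (-0.019 with no filter on low values) against Ly6c2-negative C1q-high cells. Against monocytes it did so for Retnlg (0.20 with at least 3 Ly6c2 UMIs), and for Bnip3 (-0.017) and Gpnmb (-0.0045) with monocytes taken up to 0.3% C1q. With Ly6c2 cells low in C1q but without the receptor and lymphoid limits it did so for Ccl5 (-1.23), Cox6a2 (-1.80), Gzma (-3.27), Kdr (-0.19), Ly6d (-2.90) and the NK cell list (-1.35). That class then also holds lymphoid cells, by its construction. The main value of the NK cell list was that of Gzma alone. The depth of 281 cells limits what can be read of genes under 10 CPM.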

Other observations

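Gene groups not described above were also read in the LOY classes, and some of them were nearly level. Of 8 measured iron and heme genes, 4 were lower in Ly6c2+ C1q-high cells than in Ly6c2-negative C1q-high cells and none was higher (median log2 ratio -0.72, but -0.28 among genes of at least 50 CPM, -0.37 with no filter on low values and -0.48 with 50 CPM added). Hmox1, heme oxygenase, had 81.2 CPM in them, below 210 CPM in Ly6c2-negative C1q-high cells and 142 CPM in monocytes. In the control library Hmox1 had 242, 232 and 77.8 CPM in the same classes, so this order was not shared. Of 13 efferocytosis genes other than C1q, 5 were lower and none was higher (median -0.31), among them the bridging ligand Gas6 with 49.3 CPM against 192 CPM. Axl, of the same list, ran higher, with 216, 141 and 112 CPM in the LOY classes. Its log2 ratio to Ly6c2-negative C1q-high cells was 0.58, just inside 1.5-fold, and -0.22 in the control library.

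Of 20 adhesion and migration genes 5 were higher and 1 lower than in Ly6c2-negative C1q-high cells, and against monocytes 1 was higher and 8 were lower. The integrin chain Itgb7 had 21.3, 8.06 and 129 CPM in the 3 LOY classes. Of 10 chemokine receptor genes, Ccr2 and Fpr2 were higher and S1pr1 was lower, and the fractalkine receptor Cx3cr1 had 447, 542 and 260 CPM. Of 30 lineage transcription factors 3 were higher than in Ly6c2-negative C1q-high cells, 4 were lower and 23 were within 1.5-fold (median 0.05). Over all genes 4.29% were higher and 6.72% lower. Irf8 was nearly level at 235, 215 and 216 CPM in the 3 LOY classes. Klf2 was below both neighbours, with 129 CPM against 205 and 209 CPM.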
